A study of Mus musculus with 36 samples.

Results

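Transcripts of 9 genes that carry the ATF6 and IRE1 arms of the endoplasmic reticulum (ER) stress response were followed across the whole series: Atf6, Atf6b, Ern1, Xbp1, Creb3, Creb3l1, Creb3l2, Mbtps1 and Mbtps2. They were taken by name from the deposited count table, each name was found on 1 entry, and all 9 passed the filter on low counts, out of 28037 gene symbols with a count and 16065 that could be tested. Bulk RNA was sequenced from mouse embryonic fibroblasts (MEF, fibroblasts grown from mouse embryos) that were wild type (WT) or PERK -/-, that is, without the ER stress kinase PERK. Each genotype received DMSO (the solvent), thapsigargin (Tg), BtdCPU, halofuginone, BtdCPU with thapsigargin, or halofuginone with thapsigargin, and each of the 12 groups held 3 libraries. The title of the series names the question, which is what activating another kinase of the integrated stress response does in cells that lack PERK.

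No dose, treatment time, order of addition, clone or number of cell lines is given in the labels, and nothing there says that the 3 libraries of a group came from separate cultures, so the p-values measure the spread between these libraries. Thapsigargin inhibits SERCA, which pumps calcium into the ER, and thereby stresses this organelle. BtdCPU activates the eIF2 alpha kinase HRI, and halofuginone, which inhibits prolyl-tRNA synthetase, activates the eIF2 alpha kinase GCN2. All treatments of a genotype share its DMSO libraries, so their comparisons are not independent. Levels are given as CPM (counts scaled to a common library size) on library sizes scaled by edgeR's TMM method. Differences are log2 fold changes with their standard error (SE), and a gene is said to have risen or fallen where the adjusted p of edgeR's quasi-likelihood test, adjusted by Benjamini-Hochberg over all tested genes, was under 0.05.

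As background, mammalian cells sense unfolded proteins in the ER through PERK, IRE1 and ATF6. IRE1 (Ern1) is a kinase and RNase that cuts a short segment out of Xbp1 mRNA, so that a frame shift yields the active factor XBP1s, and under stress it also degrades other mRNAs at the ER membrane (regulated IRE1-dependent decay, RIDD). ATF6 and its relative ATF6B (Atf6b) are membrane-bound factors that travel to the Golgi, where the site-1 protease (Mbtps1) and the site-2 protease (Mbtps2) release their active part. CREB3 (Creb3), OASIS (Creb3l1) and BBF2H7 (Creb3l2) are membrane-bound factors released by the same proteases, and Creb3l1 and Creb3l2 are known for collagen secretion in bone and cartilage. Activation of all these proteins happens by cleavage or splicing, which transcript counts per gene do not measure.

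The first sequence shown is the stretch of Xbp1 mRNA that IRE1 cuts, because it limits what the Xbp1 counts can say. Capitals mark the 26 bases removed, read from the annotated transcript Xbp1-201. Their length is not a multiple of 3, and the reading frame has 267 codons with the segment and 371 without it.

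Xbp1-201 around the segment: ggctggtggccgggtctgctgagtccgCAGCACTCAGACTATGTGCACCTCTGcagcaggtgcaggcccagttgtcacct

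Of the 4 Xbp1 transcripts in the annotation, 3 hold the segment and 0 are annotated with it cut out, so a count per gene adds the unspliced and spliced forms together.

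Promoters are shown for 3 genes whose transcripts rose with thapsigargin in WT cells. Capitals mark CCACG on either strand (CGTGG where it reads on the other one), the part of the ER stress response element (ERSE) that ATF6 contacts. The sequences run from 250 bases before the annotated start up to it and were taken from RefSeq on GRCm38.p6.

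Ern1 promoter, chr11:106487797-106488046, minus strand: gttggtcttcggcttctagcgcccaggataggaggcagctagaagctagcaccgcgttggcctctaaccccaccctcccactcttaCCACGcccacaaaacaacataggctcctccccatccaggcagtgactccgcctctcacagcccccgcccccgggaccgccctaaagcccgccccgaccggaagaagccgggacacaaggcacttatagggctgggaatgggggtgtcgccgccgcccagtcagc

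Creb3 promoter, chr4:43562408-43562657, plus strand: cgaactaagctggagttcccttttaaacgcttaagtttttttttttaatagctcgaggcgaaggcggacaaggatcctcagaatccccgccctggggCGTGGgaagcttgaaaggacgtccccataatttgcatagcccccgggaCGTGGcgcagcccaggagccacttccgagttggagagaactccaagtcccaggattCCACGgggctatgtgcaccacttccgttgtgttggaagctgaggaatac

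Xbp1 promoter, chr11:5520391-5520640, plus strand: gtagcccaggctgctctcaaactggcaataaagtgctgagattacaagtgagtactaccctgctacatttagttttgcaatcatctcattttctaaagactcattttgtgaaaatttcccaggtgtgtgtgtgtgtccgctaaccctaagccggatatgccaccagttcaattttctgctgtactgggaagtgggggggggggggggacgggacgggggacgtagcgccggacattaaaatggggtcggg

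RefSeq entries matched 7 of the 9 genes, all but Atf6 and Creb3l1. Motifs were searched on both strands in windows that begin 250 bases before the start and end shortly after it. CCACG lay in 3 of the 7 windows (Ern1, Creb3 and Mbtps1) and in 32.8% of all 32851 promoters of the same length. TGACG, a core of the cAMP response element, lay in 2 (Creb3l2 and Mbtps1) and in 20.8% of all promoters. The whole ERSE (CCAAT, then 9 free bases, then CCACG) lay in 0.119% of all promoters, ERSE-II (ATTGG, 1 free base, CCACG) in 0.0365%, TGACGTGG in 0.676%, TGACGTCA in 1.79% and TGATGNAA, part of the element bound by C/EBP and ATF factors, in 3.97%. None of these 5 was found in any of the 7 windows, which says only that these letters are not there. CCACG is part of ERSE and ERSE-II, and TGACG is part of TGACGTGG and TGACGTCA.

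Library totals ran from 32454257 to 37178107 counts, and the 9 genes had between 310 (Ern1) and 19162 (Xbp1) counts in a library. Eif2ak3, the gene of PERK, separated the genotypes with DMSO: its level was 31.1 ± 1.10 CPM (SD, n = 3) with DMSO in WT cells and 9.95 ± 0.760 CPM (SD, n = 3) in PERK -/- cells, and no library overlapped between these groups. Within each other treatment the genotypes did not overlap either. In WT against PERK -/- cells Eif2ak3 was 78.1 to 104 against 25.01 to 31.2 CPM with thapsigargin and 29.3 to 55.5 against 7.66 to 10.1 CPM with halofuginone. With BtdCPU it was 16.4 to 27.1 against 8.09 to 9.22 CPM, and with BtdCPU and thapsigargin 72.7 to 74.9 against 17.8 to 23.7 CPM. With halofuginone and thapsigargin it was 91.7 to 110 against 28.1 to 35.4 CPM. Between unlike treatments the labels were not separated, since PERK -/- cells with thapsigargin, alone or with halofuginone, overlapped the 30.3 to 32.4 CPM of WT cells with DMSO. Of 10 fibroblast markers, 9 were over 1 CPM in every library (all but Lum). The sum of the 10 was 22225 to 31228 CPM in WT and 14037 to 17554 CPM in PERK -/- cells with DMSO. With thapsigargin it was 15730 to 20362 against 17693 to 22825 CPM, and with halofuginone 27997 to 39001 against 15145 to 16014 CPM. None of the 4 epithelial, 4 endothelial, 4 leukocyte or 4 muscle markers was over 1 CPM in every library, and their summed levels reached at most 23.5, 5.33, 3.81 and 1.34 CPM. Epithelial markers were highest in WT cells with halofuginone, where the sum was 16.9 to 23.5 CPM against 0.114 to 0.337 CPM with DMSO, while Epcam never passed 1 CPM. Of 4 neural markers, Tubb3 and Map2 were over 1 CPM in every library and Sox10 and Gfap in none. The neural sum was 211 to 236 CPM in WT cells with thapsigargin and 62.6 to 72.2 CPM with DMSO, and 110.2 to 132 CPM against 73.9 to 82.6 CPM in PERK -/- cells. The part of these markers in the results below was not tested, and in bulk RNA fewer cells of a type and less RNA per cell cannot be told apart.

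WT BtdCPU replicate 2 stood apart over the whole table as well as for these genes. Over genes with counts, its chi-square per degree of freedom was 88.5 against replicate 1 and 116 against replicate 3. Between replicates 1 and 3 it was 17.5. The Atf6 level of replicate 2 was 66.0 CPM against 148 and 127 CPM in replicates 1 and 3, its Ern1 level 17.0 CPM against 30.4 and 38.2 CPM, and its Xbp1 level 127 CPM against 86.2 and 83.2 CPM. Changes that rest on the WT BtdCPU group are therefore also given without this library where it moved them. Creb3 shares 360 exon bases with Tln1 and 133 with Gba2, both on the other strand, and Mbtps2 shares 2867 exon bases with Yy2 on the same strand. The libraries were strand-specific per the labels, but use of strand in counting is not given in the sources used here, so the Creb3 counts can include reads of Tln1 and Gba2. Because Yy2 lies on the same strand, the Mbtps2 counts can include its reads whether or not strand was used. Tln1 ran from 589.9 to 1310.1 CPM over the libraries, Gba2 from 8.11 to 23.6 CPM and Yy2 from 4.65 to 23.6 CPM.

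With DMSO alone, the 9 genes differed widely in level. Between genes, levels are compared per kilobase of exon, with the length taken as the union of all annotated exons of a gene. For Xbp1 that union is 3248 bases, while the transcript Xbp1-201 has 2129 bases. A shorter length gives a higher value, so the order below depends in part on the length used, and no other length was tried. In WT cells Atf6b stood highest at 51.7 ± 2.89 CPM per kb (SD, n = 3), followed by Xbp1 at 33.7 ± 8.96 and Mbtps1 at 33.6 ± 1.92. Creb3l1 came next at 22.0 ± 1.35 and Creb3 at 15.6 ± 1.51. The sensors themselves were low, with Atf6 at 4.32 ± 0.759 and Ern1 lowest at 1.63 ± 0.228 CPM per kb, and Creb3l2 (5.47 ± 0.619) and Mbtps2 (4.90 ± 0.232) lay near Atf6.

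PERK -/- cells had less Xbp1, Creb3l1 and Creb3l2 than WT cells before any stress, and no other gene of the 9 passed the test (3 of 9 called, against 49.5% of all tested genes). Creb3l2 was 36.5, 38.1 and 45.0 CPM in the WT libraries and 17.1, 13.8 and 19.8 CPM in the PERK -/- libraries. The groups did not overlap, and the difference was -1.24 (SE 0.188, edgeR adjusted p 1.77e-06). Creb3l1 was 54.5, 55.9 and 61.2 CPM against 28.0, 20.7 and 30.8 CPM, again without overlap, a difference of -1.11 (SE 0.209, edgeR adjusted p 4.54e-05). Xbp1 was 108, 139 and 81.3 CPM against 58.3, 65.8 and 59.97 CPM, with the lowest WT library above the highest PERK -/- one, and differed by -0.84 (SE 0.143, edgeR adjusted p 1.11e-05). For Atf6 the difference was -0.04 with a 95% interval from -0.38 to 0.30, and for Ern1 -0.35 with an interval from -0.77 to 0.07. Without the filter on low counts the Ern1 difference passed the test (-0.39, edgeR adjusted p 0.0336).

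**Figure D1:**
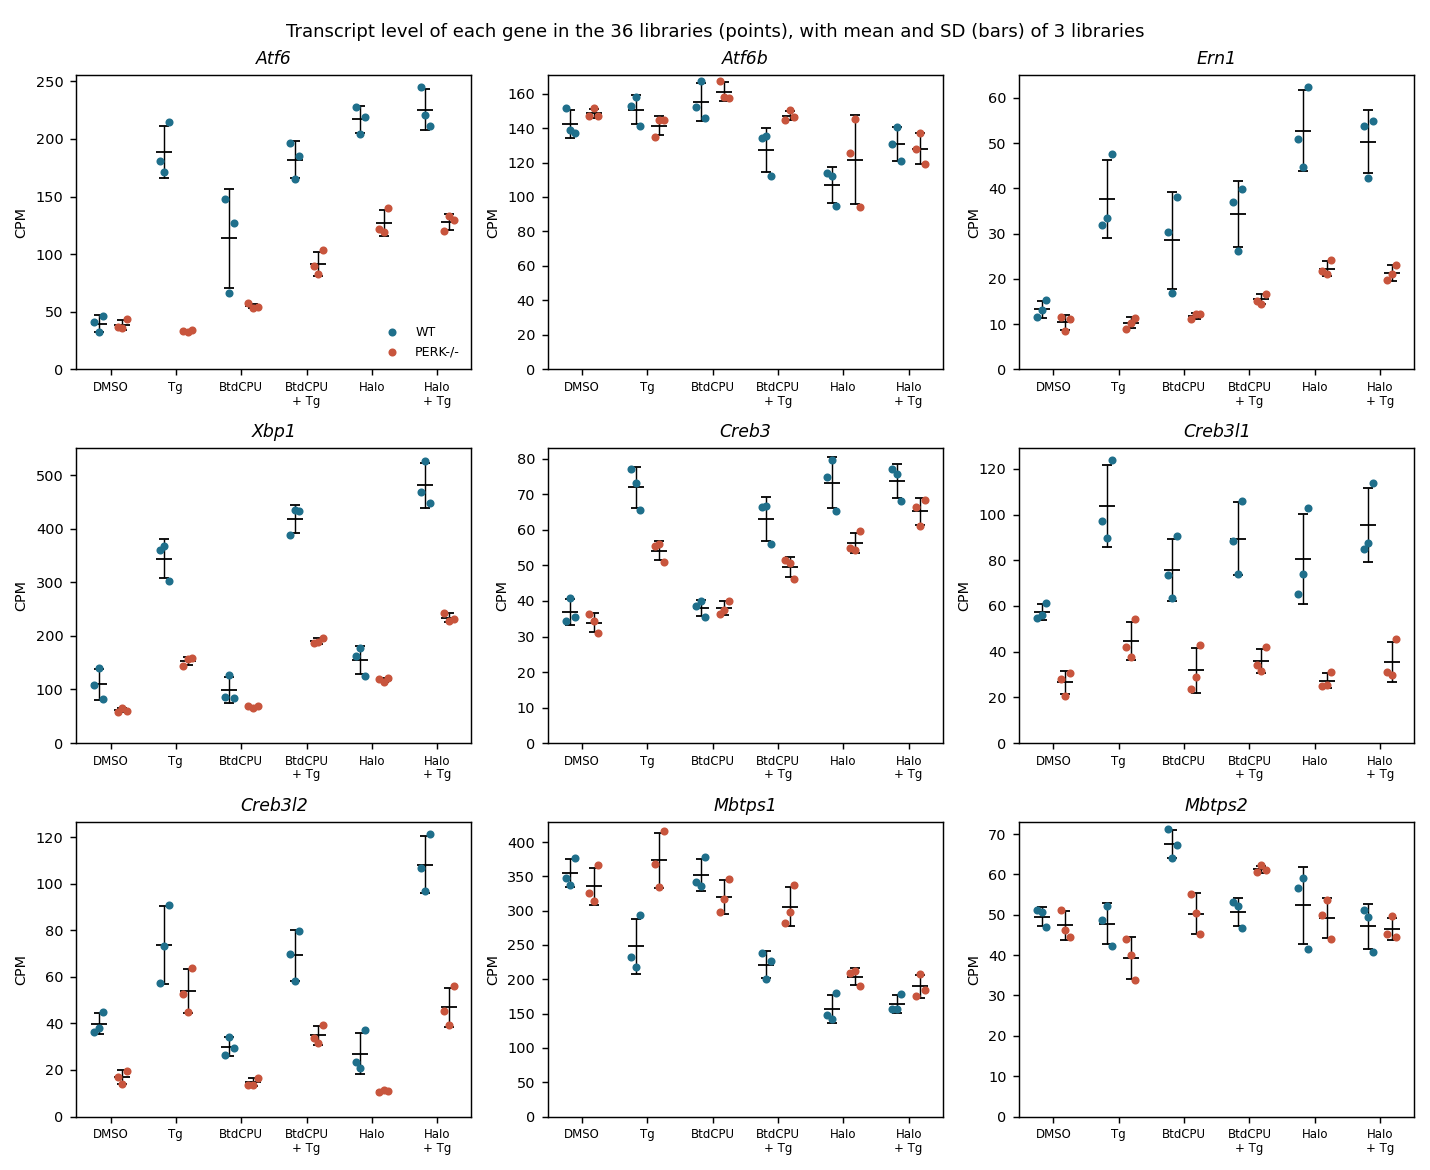
Level of each gene in CPM (y axis, from 0) in the 36 libraries (points) by treatment (x axis), WT and PERK -/- side by side, with the mean and SD of 3 libraries as bars. Atf6 and Ern1 are high in all WT groups other than DMSO and stay near their DMSO level in PERK -/- cells with thapsigargin alone, while Xbp1 and Creb3l2 are higher with thapsigargin in both genotypes.

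Thapsigargin raised Atf6 and Ern1 in WT cells, and in PERK -/- cells neither passed the test. Atf6 went from 41.1, 32.3 and 46.1 CPM with DMSO to 180.5, 172 and 215 CPM in WT cells. In PERK -/- cells it was 37.1, 35.5 and 43.5 CPM with DMSO and 33.1, 32.1 and 34.0 CPM with thapsigargin. Every treated WT library was thus far above every other library of these 4 groups. The WT rise was 2.24 (SE 0.171, 4.74-fold, edgeR adjusted p 2.91e-12). The PERK -/- change was -0.23 (SE 0.166, 95% interval -0.57 to 0.12, edgeR adjusted p 0.342), and it passed the test as a small fall when only these 2 groups were fitted (-0.26, edgeR adjusted p 0.0424). The difference between the responses was -2.47 (SE 0.236, edgeR adjusted p 1.09e-09).

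Ern1, the gene of IRE1, followed the same pattern at lower counts. It was 11.7, 13.0 and 15.4 CPM with DMSO and 31.9, 33.5 and 47.6 CPM with thapsigargin in WT cells, and 11.7, 8.54 and 11.2 CPM against 9.05, 10.4 and 11.5 CPM in PERK -/- cells. The WT groups did not overlap and the PERK -/- groups did. Ern1 rose by 1.5 in WT cells (SE 0.202, edgeR adjusted p 2.99e-07), the PERK -/- change was -0.02 (95% interval -0.45 to 0.40), and the responses differed by -1.52 (SE 0.286, edgeR adjusted p 7.72e-05).

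Xbp1, the substrate of IRE1, rose in both genotypes. It was 361, 369 and 303 CPM with thapsigargin in WT cells and 145, 156 and 158 CPM in PERK -/- cells, above all DMSO libraries of the same genotype. The rises were 1.65 (SE 0.144, 3.14-fold, edgeR adjusted p 5.60e-11) and 1.32 (SE 0.144, 2.49-fold, edgeR adjusted p 1.82e-08). Their difference was -0.33 with a 95% interval from -0.75 to 0.08, and it passed the test only without WT DMSO replicate 2 among the fits that left out 1 library (-0.55, edgeR adjusted p 0.025).

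All 3 CREB3 family genes rose in both genotypes as well. Creb3l2 reached 57.5, 73.1 and 90.8 CPM in WT and 52.7, 45.0 and 63.9 CPM in PERK -/- cells, so that the treated groups overlapped although the DMSO groups had not. Its rise was 0.89 (SE 0.183) in WT and 1.67 (SE 0.189) in PERK -/- cells. These differed by 0.78 (SE 0.260, edgeR adjusted p 0.0167). This difference no longer passed without PERK -/- DMSO replicate 2 (0.66), PERK -/- Tg replicate 3 (0.64) or WT Tg replicate 1 (0.63). Creb3, a factor of secretory pathway genes, rose by 0.97 (SE 0.0947) and 0.68 (SE 0.0945). Creb3l1 rose by 0.86 (SE 0.205) and 0.75 (SE 0.208), and the PERK -/- rise did not pass without PERK -/- DMSO replicate 2 (0.60) or PERK -/- Tg replicate 3 (0.55). Tln1, the larger neighbour of Creb3, did not pass in either genotype (-0.10 and -0.08), while Gba2 rose in PERK -/- cells (0.50, edgeR adjusted p 0.0138).

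Among the proteases and the second ATF6, changes were small or absent at this precision. Mbtps1, the site-1 protease, was 348, 338 and 377 CPM with DMSO and 233, 218 and 293 CPM with thapsigargin in WT cells, without overlap, a fall of 0.51 on the log2 scale (-0.51, SE 0.110, edgeR adjusted p 0.000278). Its PERK -/- levels were 326, 314 and 366 CPM against 368, 335 and 416 CPM, which overlap, and the responses differed by 0.67 (SE 0.156, edgeR adjusted p 0.000948). Mbtps2, the site-2 protease, changed by -0.05 (95% interval -0.29 to 0.19) and -0.27 (95% interval -0.51 to -0.03, edgeR adjusted p 0.0880). The second of these passed with DESeq2 (-0.30, adjusted p 0.0394), when only these 2 groups were fitted (-0.30, edgeR adjusted p 0.0353) and without PERK -/- Tg replicate 1 (-0.36, edgeR adjusted p 0.0459), and its neighbour Yy2 fell there (-0.39, edgeR adjusted p 0.0284). Atf6b stayed between 137 and 158 CPM in the 6 WT libraries and between 135 and 152 CPM in the 6 PERK -/- libraries, and did not pass in either genotype.

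In counts, thapsigargin moved 7 of the 9 genes in WT cells (6 higher, 1 lower), where 47.6% of all tested genes were called (24.9% higher, 22.7% lower). It moved 4 in PERK -/- cells (all higher) against 27.9% (15.2% higher, 12.7% lower). The responses of the genotypes differed for 4 of the 9 (Atf6 and Ern1 lower, Creb3l2 and Mbtps1 higher in PERK -/- cells) against 38.1% of all genes (19.5% higher, 18.6% lower). That last count was 6 without WT DMSO replicate 2, when Xbp1 and Creb3 (-0.37, edgeR adjusted p 0.0366) also passed. The Creb3 difference of -0.29 likewise passed without WT Tg replicate 3 (-0.35) and with DESeq2 (-0.31, adjusted p 0.0444). The median over the 9 genes was 0.89 in WT and 0.15 in PERK -/- cells, and over all tested genes 0.02 and 0.05.

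**Figure D2:**
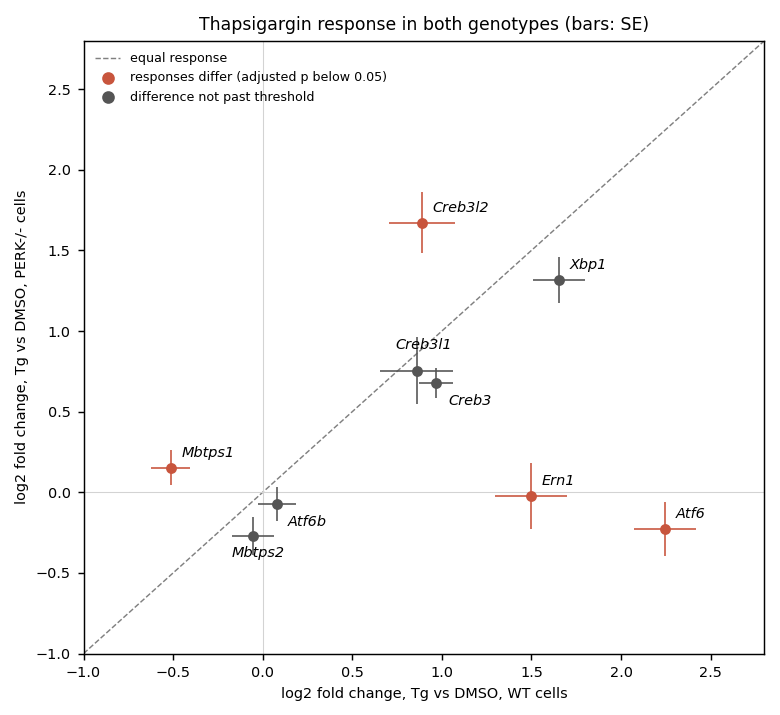
Log2 fold change with thapsigargin against DMSO in WT cells (x axis) and in PERK -/- cells (y axis) for the 9 genes, with SE as bars and a dashed line where both are equal. Atf6 and Ern1 lie far under the line, at 2.24 and 1.5 in WT and near 0 in PERK -/- cells, Creb3l2 lies above it, and Xbp1, Creb3 and Creb3l1 lie near it.

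The compounds given alone were compared with the same DMSO libraries as thapsigargin. In WT cells BtdCPU raised Atf6 and Ern1, and the groups did not overlap for either gene. Atf6 rose by 1.51 (SE 0.168, edgeR adjusted p 5.31e-08), and by 1.79 without WT BtdCPU replicate 2. Ern1 rose by 1.09 (SE 0.201, edgeR adjusted p 0.000168, and 0.0512 when only these 2 groups were fitted), and by 1.36 without that library. Mbtps2 rose as well, from 51.2, 50.6 and 46.9 CPM to 71.2, 64.2 and 67.4 CPM, by 0.45 (SE 0.117, edgeR adjusted p 0.00561), and by 0.48 without replicate 2. Its neighbour Yy2 changed by -0.37 there and did not pass. Xbp1 did not pass (-0.15, 95% interval -0.44 to 0.14), and without WT BtdCPU replicate 2 it was called lower (-0.37, edgeR adjusted p 0.0410). Thus 3 of 9 genes were called, against 22.2% of all genes (3571 genes), and 4 without that library, when 5062 genes were called in all. Without WT BtdCPU replicate 1 the whole-table count was 1780. Creb3l1 (0.41) and Creb3l2 (-0.41) did not pass, but did without the filter on low counts (edgeR adjusted p 0.0134 and 0.0192). Both also passed with the replicate number as a block (0.39, edgeR adjusted p 0.00233, and -0.39, edgeR adjusted p 0.0112).

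In PERK -/- cells BtdCPU moved 0 of the 9 genes, where 3.59% of all genes were called (577 genes, and 326 to 405 with 1 library left out), with 1 of the 9 under an unadjusted p of 0.05 in edgeR. That gene was Atf6, which lay at 57.3, 53.8 and 54.3 CPM, above all 3 DMSO libraries. Its change was 0.51 (SE 0.165, edgeR adjusted p 0.0851), and it passed with DESeq2 (0.51, adjusted p 0.0495), without the filter (0.52, edgeR adjusted p 0.00144) and when only these 2 groups were fitted (0.51, edgeR adjusted p 0.00448). For Ern1 the change was 0.18 (95% interval -0.24 to 0.60). The responses to BtdCPU differed between genotypes for 0 of the 9 genes (0.199% of all genes, or 32 genes), with 3 under an unadjusted p of 0.05, and DESeq2 called 1. The difference was -1.0 for Atf6 (SE 0.233, edgeR adjusted p 0.0622) and -0.92 for Ern1 (SE 0.285, edgeR adjusted p 0.193). Without WT BtdCPU replicate 2 both passed, at -1.28 (edgeR adjusted p 1.09e-05) and -1.18 (edgeR adjusted p 0.00346), in a fit that called 845 genes in all, and both passed without the filter (-0.99 and -0.91). Atf6 also passed with DESeq2 (-1.0, adjusted p 0.0108) and without WT DMSO replicate 3 (-1.12, edgeR adjusted p 0.0397).

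Halofuginone alone raised Atf6 and Ern1 in both genotypes. Atf6 was 227, 204 and 219 CPM in WT and 122, 119 and 139.7 CPM in PERK -/- cells, and all 6 libraries were above the DMSO libraries. The rises were 2.44 (SE 0.172, 5.44-fold, edgeR adjusted p 1.17e-13) and 1.71 (SE 0.168, 3.28-fold, edgeR adjusted p 1.15e-09). Ern1 was 50.9, 44.8 and 62.5 CPM in WT and 21.7, 21.0 and 24.1 CPM in PERK -/- cells, again above every DMSO library. It rose by 1.98 (SE 0.204) and 1.09 (SE 0.202). Both responses were smaller in PERK -/- cells, by -0.73 for Atf6 (SE 0.232, edgeR adjusted p 0.0142) and -0.89 for Ern1 (SE 0.282, edgeR adjusted p 0.0141). The Atf6 difference did not pass without PERK -/- DMSO replicate 3 (-0.58), PERK -/- halofuginone replicate 2 (-0.64) or WT DMSO replicate 2 (-0.60), nor the Ern1 difference without WT halofuginone replicate 3 (-0.71).

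Xbp1 with halofuginone was 163, 177 and 126 CPM in WT and 119, 113 and 121 CPM in PERK -/- cells. The WT libraries overlapped the DMSO ones and the PERK -/- libraries did not. Xbp1 rose by 0.50 (SE 0.141, edgeR adjusted p 0.00237) and 0.94 (SE 0.143, edgeR adjusted p 3.00e-06), and the difference of 0.43 did not pass (95% interval 0.02 to 0.85, edgeR adjusted p 0.0903). It did pass without the filter on low counts (0.51, edgeR adjusted p 0.0152), without WT DMSO replicate 3 (0.61, edgeR adjusted p 0.0110) and without WT halofuginone replicate 2 (0.54, edgeR adjusted p 0.0436). Creb3 rose by 0.99 (SE 0.0947) in WT and 0.73 (SE 0.0945) in PERK -/- cells, where its neighbour Gba2 rose by 0.89 (edgeR adjusted p 8.61e-06) and changed by 0.01, respectively. Creb3l2 fell in both, by 0.56 (-0.56, SE 0.185) and 0.62 (-0.62, SE 0.191), and these calls were lost without WT halofuginone replicate 2 (-0.40) and without PERK -/- DMSO replicate 3 (-0.49). Creb3l1 rose in WT cells by 0.50 (SE 0.205, edgeR adjusted p 0.0324) but not without WT DMSO replicate 1 (0.46), WT DMSO replicate 2 (0.48) or WT halofuginone replicate 3 (0.24), nor on library size alone (0.36).

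Mbtps1 fell with halofuginone in both genotypes. It was 148, 143 and 181 CPM in WT and 209, 212 and 190.2 CPM in PERK -/- cells, under all DMSO libraries of the same genotype. The changes were -1.17 (SE 0.112, edgeR adjusted p 9.30e-11) and -0.72 (SE 0.111, edgeR adjusted p 3.67e-06), and they differed by 0.46 (SE 0.156, edgeR adjusted p 0.0227). Without PERK -/- DMSO replicate 2 (0.42), WT DMSO replicate 3 (0.41) or WT halofuginone replicate 2 (0.40) that difference did not pass. Atf6b changed by -0.41 (SE 0.106, edgeR adjusted p 0.000995) and -0.29 (SE 0.106, edgeR adjusted p 0.0276). The second call was lost without any of the 3 PERK -/- DMSO libraries (-0.30, -0.27 and -0.29 without replicates 1, 2 and 3), without PERK -/- halofuginone replicate 3 (-0.13), without the filter (-0.28) and when only these 2 groups were fitted (-0.28). Without PERK -/- halofuginone replicate 3 the genotypes differed for Atf6b (0.34, edgeR adjusted p 0.0432). In all, halofuginone moved 8 of 9 genes in WT cells (5 higher, 3 lower), against 68.2% of all genes (34.7% higher, 33.4% lower), and 7 in PERK -/- cells (4 higher, 3 lower), against 42.2% (21.2% higher, 21.0% lower). The genotypes differed for 3 of 9, against 35.0% of all genes.

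Adding a compound to thapsigargin brought Atf6 and Ern1 up in PERK -/- cells, the genotype in which neither rose with thapsigargin alone. With thapsigargin alone Atf6 was 33.1, 32.1 and 34.0 CPM, with BtdCPU and thapsigargin 89.4, 82.9 and 103 CPM, and with halofuginone and thapsigargin 119.7, 134 and 130.1 CPM. The 3 groups did not overlap. Against thapsigargin alone Atf6 rose by 1.47 with BtdCPU (SE 0.168, 2.78-fold, edgeR adjusted p 3.63e-08) and by 1.95 with halofuginone (SE 0.170, 3.86-fold, edgeR adjusted p 3.78e-11). In WT cells, where thapsigargin alone gave 189 ± 22.7 CPM (SD, n = 3), the same additions gave 182 ± 15.8 and 225 ± 17.7 CPM (SD, n = 3). These WT changes were -0.05 (95% interval -0.39 to 0.28) and 0.26 (95% interval -0.08 to 0.59), and the genotypes differed by 1.53 (SE 0.232, edgeR adjusted p 1.32e-05) and 1.69 (SE 0.232, edgeR adjusted p 1.10e-06).

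Ern1 in PERK -/- cells was 15.2, 14.5 and 16.7 CPM with BtdCPU and thapsigargin and 19.8, 21.0 and 23.2 CPM with halofuginone and thapsigargin, all above the 9.05, 10.4 and 11.5 CPM of thapsigargin alone. It rose by 0.59 (SE 0.203, edgeR adjusted p 0.0225) and 1.05 (SE 0.202, edgeR adjusted p 5.45e-05). The rise with BtdCPU did not pass without PERK -/- BtdCPU with thapsigargin replicate 3 (0.57) or PERK -/- Tg replicate 1 (0.51). In WT cells Ern1 changed by -0.13 (95% interval -0.53 to 0.27) and 0.42 (95% interval 0.02 to 0.82). The genotypes differed by 0.72 (edgeR adjusted p 0.0657) and 0.63 (edgeR adjusted p 0.0822), neither of which passed. With the replicate number as a block both passed (0.73, edgeR adjusted p 0.00231, and 0.62, edgeR adjusted p 0.00532). Deviations of same-numbered libraries correlated above 0.1 for all pairs in the WT part of these comparisons. In the PERK -/- part only replicate 3 did so (0.13 with either compound), and the other pairs were at 0.02 to 0.06. Unmatched libraries there reached 0.03 (BtdCPU) and 0.08 (halofuginone). The first genotype difference also passed with DESeq2 (0.74, adjusted p 0.0478), without the filter (0.77, edgeR adjusted p 0.00249), on only the groups compared (0.77, edgeR adjusted p 0.0297) and without WT BtdCPU with thapsigargin replicate 3 (0.89), WT Tg replicate 1 (0.83) or WT Tg replicate 2 (0.85). For the second, 0.71 without the filter (edgeR adjusted p 0.00404), 0.67 on library size alone (edgeR adjusted p 0.0492), 0.68 on only the groups compared (edgeR adjusted p 0.0246) and 0.76 without WT Tg replicate 2 (edgeR adjusted p 0.0496) passed.

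Xbp1 was highest of all groups in WT cells with halofuginone and thapsigargin, at 468, 527 and 447 CPM, above the 361, 369 and 303 CPM of thapsigargin alone (0.48, SE 0.141, edgeR adjusted p 0.00553). Halofuginone raised it in PERK -/- cells from 145, 156 and 158 CPM to 243, 228 and 231 CPM (0.61, SE 0.141, edgeR adjusted p 0.000463). BtdCPU with thapsigargin gave 186, 188 and 197 CPM in PERK -/- cells, above thapsigargin alone in all 3 libraries, but the change of 0.32 did not pass (edgeR adjusted p 0.0805). It passed without the filter (0.35, edgeR adjusted p 0.0190) and when only these 2 groups were fitted (0.35, edgeR adjusted p 0.00107).

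The other genes moved less evenly. Creb3l2 in WT cells was 107, 96.7 and 121 CPM with halofuginone and thapsigargin, above thapsigargin alone (0.55, SE 0.181, edgeR adjusted p 0.0129), a call lost without WT halofuginone with thapsigargin replicate 3 (0.46) or WT Tg replicate 1 (0.40). BtdCPU lowered Creb3l2 in PERK -/- cells from 52.7, 45.0 and 63.9 CPM to 33.7, 31.7 and 39.3 CPM (-0.63, SE 0.183, edgeR adjusted p 0.00751), which did not pass without PERK -/- BtdCPU with thapsigargin replicate 2 (-0.52) or PERK -/- Tg replicate 3 (-0.45). Mbtps1 fell with halofuginone in both genotypes, from 233, 218 and 293 CPM to 157, 157 and 179 CPM in WT (-0.59, SE 0.111, edgeR adjusted p 5.30e-05) and from 368, 335 and 416 CPM to 175, 208 and 185 CPM in PERK -/- cells (-0.98, SE 0.111, edgeR adjusted p 8.56e-09). With BtdCPU in PERK -/- cells it changed by -0.29 (SE 0.110, edgeR adjusted p 0.0402). That call was lost without PERK -/- BtdCPU with thapsigargin replicate 1 (-0.19) or 2 (-0.23), without PERK -/- Tg replicate 1 (-0.30) or 3 (-0.17) and without the filter (-0.25). The genotypes differed by -0.38 for Mbtps1 with halofuginone, which did not pass (edgeR adjusted p 0.0587) but did without WT Tg replicate 3 (-0.52, edgeR adjusted p 0.00908) and with the replicate block (-0.39, edgeR adjusted p 0.00547). Mbtps2 rose in PERK -/- cells with BtdCPU, from 44.1, 40.0 and 33.8 CPM to 60.6, 62.3 and 61.1 CPM (0.64, SE 0.117, edgeR adjusted p 6.44e-05), and the genotypes differed by 0.56 (SE 0.166, edgeR adjusted p 0.0148). Yy2 changed by 0.12 in that comparison and did not pass. With halofuginone the Mbtps2 change of 0.24 passed only without PERK -/- Tg replicate 1 (0.33) and on only these 2 groups (0.28) among the fits without a block, while Yy2 rose by 1.09 (edgeR adjusted p 4.05e-08).

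In counts, BtdCPU added to thapsigargin moved 0 of 9 genes in WT cells (2.32% of all genes, or 372 genes, which became 41 without WT BtdCPU with thapsigargin replicate 3 and at most 331 without another library), with 2 under an unadjusted p of 0.05 in edgeR and 0 by DESeq2, and 5 in PERK -/- cells (35.6%: 17.3% higher and 18.3% lower). That count was 3 without PERK -/- BtdCPU with thapsigargin replicate 2 or PERK -/- Tg replicate 3. Halofuginone moved 3 in WT cells (45.3%: 22.8% higher and 22.5% lower) and 5 in PERK -/- cells (52.7%: 25.2% higher and 27.5% lower), where Creb3 was the other rise (0.27, SE 0.0935, edgeR adjusted p 0.0159, and 0.0550 without the filter) and its neighbour Gba2 fell (-0.48, edgeR adjusted p 0.00863). The genotypes differed for 2 of 9 genes with BtdCPU (20.8% of all genes) and for 2 with halofuginone (32.7%), Atf6 and Creb3l2. The latter, -0.75 for Creb3l2 (SE 0.256, edgeR adjusted p 0.0236), was lost without 6 single libraries, among which it ranged from -0.56 (without PERK -/- Tg replicate 3) to -0.69 (without WT Tg replicate 2). The others were replicates 1 (-0.67) and 2 (-0.59) of PERK -/- halofuginone with thapsigargin, replicate 3 of WT halofuginone with thapsigargin (-0.66) and WT Tg replicate 1 (-0.60).

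Deviations of same-numbered libraries correlated above 0.1 for all pairs in 3 comparisons of WT cells. For those, a fit with the replicate number as a block is given beside the results. In the other WT comparisons of treatments replicates 2 and 3 also correlated above 0.1, for example at 0.20 and 0.28 for thapsigargin against DMSO. Replicate 1 did not (0.04 there). The main fit held no block, and blocked values of single genes outside these 3 comparisons are mostly not given. With that block, BtdCPU with thapsigargin against thapsigargin called 2 genes in place of 0, Atf6b (-0.25, edgeR adjusted p 0.0402) and Xbp1 (0.29, edgeR adjusted p 0.0318). Halofuginone with thapsigargin against thapsigargin called 5 in place of 3, adding Atf6b (-0.20, edgeR adjusted p 0.0329) and Ern1 (0.43, edgeR adjusted p 0.00399). Ern1 also passed there without the filter (0.38, edgeR adjusted p 0.0320), without WT halofuginone with thapsigargin replicate 2 (0.53) and without WT Tg replicate 3 (0.62). Halofuginone with thapsigargin against halofuginone added Atf6b (0.29, edgeR adjusted p 0.00756). Over the 216 values of these genes in all comparisons, the block added 36 calls and removed 0. The share of all tested genes called with the block is not given here. A general rise in calls over all genes can therefore not be told from a result about these genes.

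**Figure D3:**
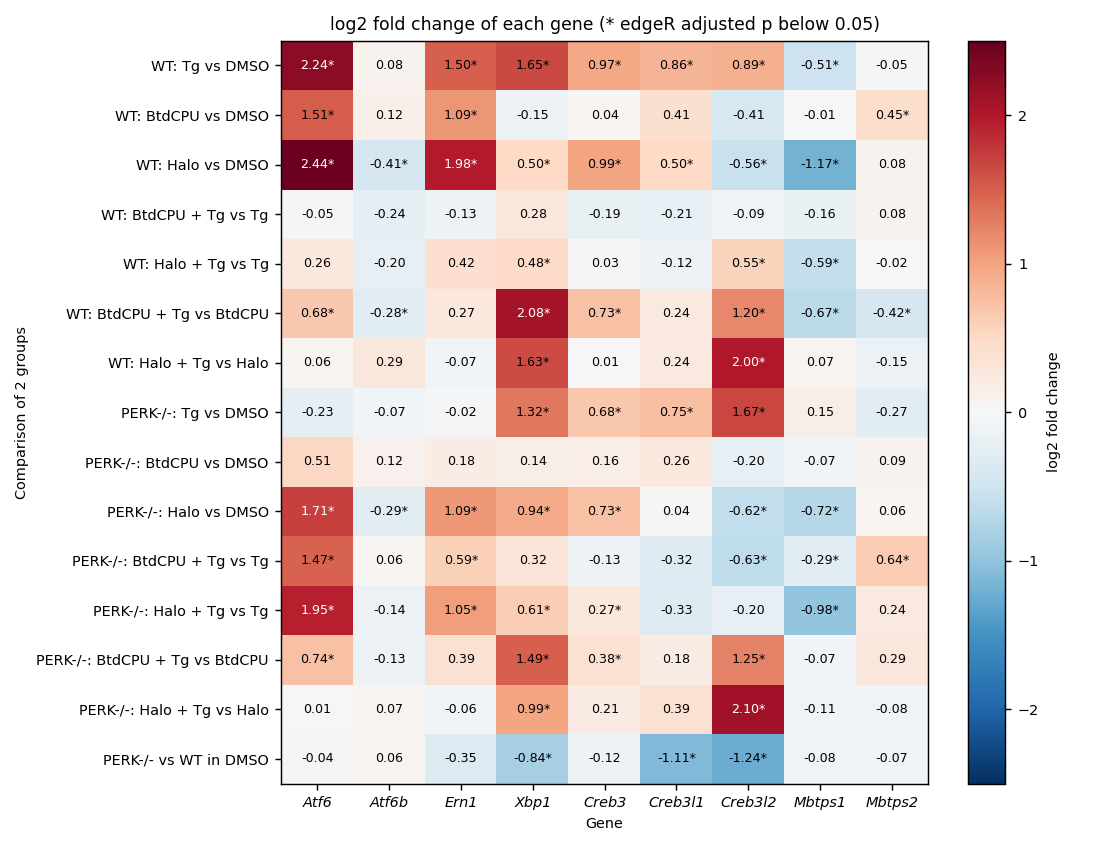
Log2 fold change of each of the 9 genes (x axis) in the 15 comparisons of 2 groups (y axis), red for higher and blue for lower, with an asterisk where the edgeR adjusted p was under 0.05. The Atf6 and Ern1 columns hold -0.23 and -0.02 for thapsigargin in PERK -/- cells and are higher where a compound was added to it in that genotype, and the Xbp1 column is high in every row where thapsigargin was added.

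The same groups can be read the other way, as thapsigargin given on top of a compound. Xbp1 and Creb3l2 then rose in both genotypes and with both compounds. On top of BtdCPU Xbp1 rose by 2.08 (SE 0.146, and 2.30 without WT BtdCPU replicate 2) in WT and 1.49 (SE 0.144) in PERK -/- cells, and on top of halofuginone by 1.63 (SE 0.144) and 0.99 (SE 0.142). Creb3l2 rose by 1.20 (SE 0.185, and 1.31 without that library) and 1.25 (SE 0.189) on top of BtdCPU. On top of halofuginone it went from 23.3, 20.7 and 37.2 CPM to 107, 96.7 and 121 CPM in WT and from 10.3, 11.6 and 10.97 CPM to 45.5, 39.5 and 56.0 CPM in PERK -/- cells, rises of 2.00 (SE 0.189) and 2.10 (SE 0.194). The libraries did not overlap in any of these comparisons.

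Atf6 on top of halofuginone changed by 0.06 in WT (95% interval -0.28 to 0.39) and 0.01 in PERK -/- cells (95% interval -0.32 to 0.35), and Ern1 by -0.07 and -0.06. On top of BtdCPU Atf6 rose by 0.68 in WT (SE 0.163, edgeR adjusted p 0.00124, and 0.0579 when only these 2 groups were fitted), by 0.40 without WT BtdCPU replicate 2, and 0.74 in PERK -/- cells (SE 0.164, edgeR adjusted p 0.00155). Ern1 changed by 0.27 (0.00 without WT BtdCPU replicate 2) and 0.39 there and did not pass, but the first passed without WT BtdCPU replicate 3 (0.54, edgeR adjusted p 0.0398) and the second when only these 2 groups were fitted (0.37, edgeR adjusted p 0.0201). Creb3 rose by 0.73 (SE 0.0944, and 0.77 without WT BtdCPU replicate 2) and 0.38 (SE 0.0941) on top of BtdCPU. In WT cells Mbtps1 changed by -0.67 (SE 0.111), Mbtps2 by -0.42 (SE 0.117, edgeR adjusted p 0.00481, and 0.0533 on library size alone) and Atf6b by -0.28 (SE 0.106, edgeR adjusted p 0.0306), where Yy2 rose by 0.83 (edgeR adjusted p 1.27e-05). Without WT BtdCPU replicate 2 Mbtps1 changed by -0.70 and Mbtps2 by -0.45. The Atf6b call was lost without replicate 1 (-0.30) or 2 (-0.23) of WT BtdCPU, replicate 3 of WT BtdCPU with thapsigargin (-0.24), on library size alone (-0.17) and on only these 2 groups (-0.27). Mbtps2 changed by 0.29 in PERK -/- cells on top of BtdCPU and passed only on these 2 groups among the fits without a block (0.27, edgeR adjusted p 0.0262). Of the 9 genes, thapsigargin on top of BtdCPU moved 7 in WT (40.4% of all genes) and 4 in PERK -/- cells (16.8%), and on top of halofuginone 2 in WT (14.0%, or 2242 genes, and 1374 without WT halofuginone with thapsigargin replicate 2) and 2 in PERK -/- cells (6.43%). Atf6b in WT cells on top of halofuginone, 0.29, passed on library size alone (0.38, edgeR adjusted p 0.0219) and without WT halofuginone with thapsigargin replicate 3 (0.34, edgeR adjusted p 0.0462).

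Whether the response to thapsigargin differed with and without a compound was tested directly. In WT cells the Atf6 response was smaller on top of BtdCPU by -1.57 (SE 0.232, edgeR adjusted p 1.98e-05, and -1.84 without WT BtdCPU replicate 2) and on top of halofuginone by -2.19 (SE 0.233, edgeR adjusted p 2.15e-08). For Ern1 the values were -1.23 (SE 0.279, edgeR adjusted p 0.00410, and 0.0790 on only the groups compared; -1.5 without WT BtdCPU replicate 2) and -1.56 (SE 0.278, edgeR adjusted p 6.36e-05). The Atf6 response in PERK -/- cells was larger on top of BtdCPU (0.96, SE 0.234, edgeR adjusted p 0.00854). For Xbp1 none of these 4 differences passed, with values of 0.43, -0.02, 0.18 and -0.32, although the first passed without WT BtdCPU replicate 2 (0.65, edgeR adjusted p 0.0138) or WT DMSO replicate 3 (0.61, edgeR adjusted p 0.0362). The counts of genes that passed were 2 for BtdCPU and 5 for halofuginone in WT cells (8.73% and 31.4% of all genes), and 2 and 1 in PERK -/- cells (7.39% and 6.49%). The first of these shares, 1402 genes, became 2668 without WT BtdCPU replicate 2 and 818 without replicate 1. Those in PERK -/- cells, 1187 and 1043 genes, became 760 and 616 without PERK -/- Tg replicate 3.

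Pathway genes downstream of the 9 were taken as lists from general knowledge, chosen with earlier results of these data in view. Of 12 ATF6 targets, mostly ER chaperones and folding factors, all 12 rose with thapsigargin in WT cells and all 12 in PERK -/- cells. Their medians were 2.72 and 1.60, against 0.02 and 0.05 for all tested genes, of which 24.9% and 15.2% were called higher. The response was smaller in PERK -/- cells for 11 of the 12 (18.6% of all genes called lower), the exception being Pdia6, named after its value was seen (-0.14). Hspa5, the chaperone BiP, rose by 3.85 (SE 0.158) and 1.97 (SE 0.146), and Herpud1, which acts in ER-associated degradation, by 4.35 (SE 0.174) and 1.97 (SE 0.158). Halofuginone added to thapsigargin in PERK -/- cells raised 7 of the 12 further and lowered 0 (25.2% and 27.5% of all genes), and BtdCPU raised 2 and lowered 1 (17.3% and 18.3% of all genes). Hspa5 was 6159 ± 230.3 CPM with thapsigargin alone and 14176 ± 1489.8 CPM with halofuginone added (SD, n = 3), a rise of 1.20 (SE 0.143).

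With halofuginone alone in WT cells, where Atf6 itself rose 5.44-fold, 9 of the 12 ATF6 targets fell and 2 rose (median -0.96). Of all genes 33.4% were called lower and 34.7% higher there. Those that rose were Herpud1 (2.44, SE 0.160) and Hspa5 (1.41, SE 0.143), and the largest fall was that of Sdf2l1, a chaperone partner, at -2.42 (SE 0.307). In PERK -/- cells 2 rose and 6 fell (median -0.37), against 21.2% of all genes called higher and 21.0% lower.

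Of the 28 XBP1s targets, genes of ER import, glycoprotein handling and degradation, 23 rose with thapsigargin in WT and 22 in PERK -/- cells, and 0 fell, where 24.9% and 15.2% of all genes were called higher. Their medians were 0.75 and 0.61. The responses differed for 7 of the 28, all smaller in PERK -/- cells, to be read against 38.1% of all genes (19.5% higher, 18.6% lower). The largest such difference was that of Dnajb9, the co-chaperone ERdj4, at -2.29 (SE 0.222, edgeR adjusted p 1.37e-09). Edem1, a lectin of ER-associated degradation, rose by 1.33 (SE 0.113) and 1.21 (SE 0.112), a difference of -0.12 (edgeR adjusted p 0.577). Halofuginone alone moved 3 higher and 14 lower in WT cells (34.7% and 33.4% of all genes). Added to thapsigargin it moved 0 higher and 17 lower in WT (22.8% and 22.5% of all genes) and 4 higher and 12 lower in PERK -/- cells (25.2% and 27.5%).

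The 6 mRNAs listed as RIDD substrates of IRE1 responded differently in the genotypes. With DMSO 4 of the 6 were lower and 1 was higher in PERK -/- than in WT cells (median -0.95, 49.5% of all genes called), so the responses started from different levels. With thapsigargin all 6 fell in WT cells (median -1.73, 22.7% of all genes called lower). In PERK -/- cells 3 rose and 2 fell (median 0.19), where 15.2% of all genes were called higher and 12.7% lower. The responses differed for 6 of 6, each higher in PERK -/- cells (median 2.05, 19.5% of all genes called higher). Bloc1s1, the RIDD substrate most used as a readout, was 53.3, 61.2 and 41.4 CPM with DMSO and 17.4, 17.8 and 12.9 CPM with thapsigargin in WT cells. In PERK -/- cells it was 27.2, 29.7 and 22.6 CPM against 25.9, 33.7 and 25.5 CPM. The WT groups did not overlap, the PERK -/- groups did, and the changes were -1.70 (SE 0.220) and 0.10 (SE 0.214). Scara3, a scavenger receptor, had the largest fall in WT cells at -3.93 (SE 0.244) and fell by -0.74 (SE 0.198) in PERK -/- cells, and Pmp22, a membrane protein of myelin, fell by -0.53 (SE 0.145) in WT and rose by 1.63 (SE 0.149) in PERK -/- cells. All 6 fell in PERK -/- cells when BtdCPU (median -0.74) or halofuginone (median -1.42) was added to thapsigargin, where 18.3% and 27.5% of all genes were called lower. Bloc1s1 then stood at 17.9, 17.7 and 12.4 CPM and at 15.4, 14.1 and 10.995 CPM. Halofuginone alone lowered 5 of the 6 in WT cells (median -1.47, 33.4% of all genes called lower) and 3 in PERK -/- cells (median -0.52, 21.0%), although the genes on this list can also change by other routes, and cutting by IRE1 was not measured.

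**Figure D4:**
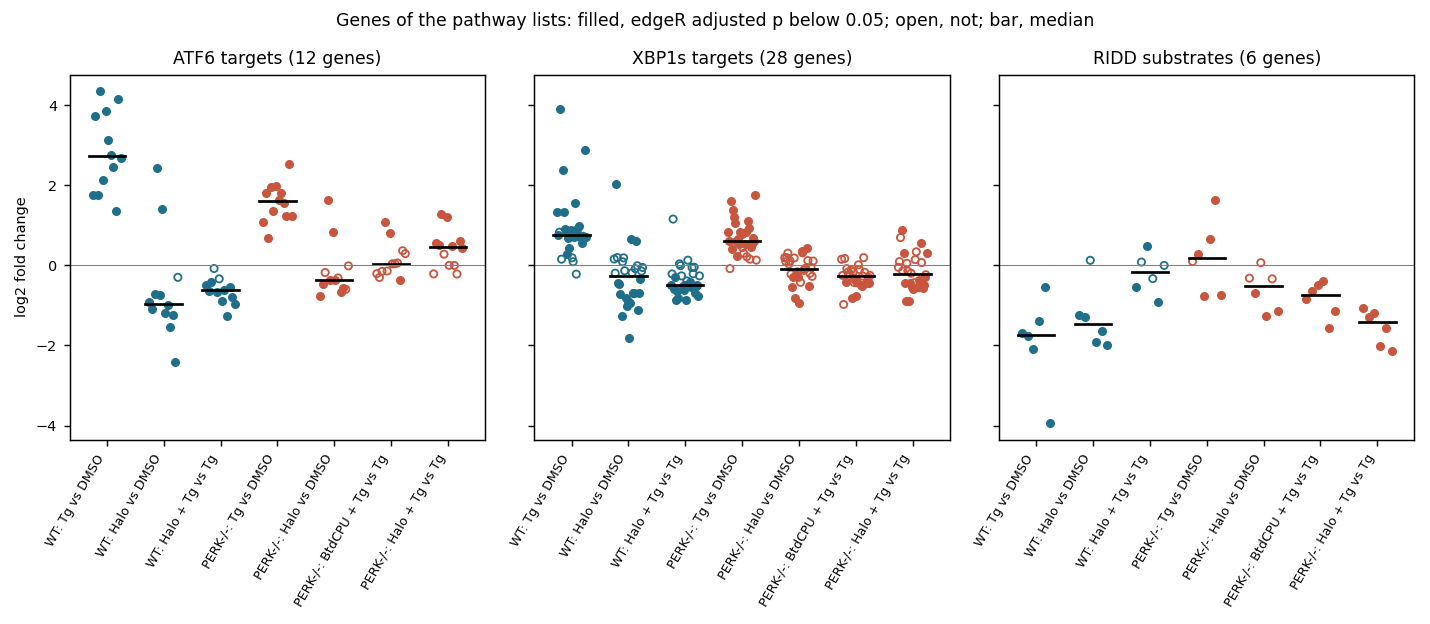
Log2 fold change (y axis) of each gene of the ATF6 target, XBP1s target and RIDD substrate lists (points, filled where the edgeR adjusted p was under 0.05) in 7 comparisons (x axis, WT in blue, PERK -/- in red), with the list median as a bar. The RIDD medians are -1.73 in WT and 0.19 in PERK -/- cells with thapsigargin, and -0.74 and -1.42 in PERK -/- cells when BtdCPU or halofuginone was added to it.

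Partners of the 2 sensors moved in mixed directions. Of 12 IRE1 partners and Xbp1 ligation factors, 2 rose and 4 fell with thapsigargin in WT cells, and 1 rose and 4 fell in PERK -/- cells. Of all genes 24.9% rose and 22.7% fell in WT and 15.2% rose and 12.7% fell in PERK -/- cells, so the WT count of 6 of 12 lay near the 47.6% called over all genes. The largest fall was that of Map3k5, the kinase ASK1 that relays IRE1 signals to JNK, at -1.93 (SE 0.224) in WT and -0.86 (SE 0.208) in PERK -/- cells. Of 10 regulators and cofactors of ATF6, 3 rose and 2 fell in WT cells, and 4 rose and 1 fell in PERK -/- cells, to be read against the same shares. Wfs1, an ER membrane protein that restrains ATF6, rose by 2.63 (SE 0.229) and 1.27 (SE 0.228).

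Over all 12 groups, Creb3l2 spanned the widest range of group means, 9.88-fold, from 10.96 CPM in PERK -/- cells with halofuginone to 108 CPM in WT cells with halofuginone and thapsigargin. Xbp1 spanned 7.84-fold (61.4 CPM in PERK -/- cells with DMSO to 481 CPM), Atf6 6.82-fold (33.1 CPM in PERK -/- cells with thapsigargin to 225 CPM) and Ern1 5.12-fold (10.3 to 52.7 CPM). Atf6b spanned 1.5-fold and Mbtps2 1.72-fold. In the order of Atf6 levels the 4 highest groups were all WT: halofuginone with thapsigargin, halofuginone, thapsigargin, and BtdCPU with thapsigargin. Each of the first 3 overlapped the next in its libraries, and the last lay clear of the group that followed, PERK -/- with halofuginone and thapsigargin. The 3 lowest Atf6 groups were WT with DMSO, PERK -/- with DMSO and PERK -/- with thapsigargin, of which the last lay below PERK -/- with DMSO without overlap. For Xbp1 the 4 highest groups, WT with halofuginone and thapsigargin, WT with BtdCPU and thapsigargin, WT with thapsigargin and PERK -/- with halofuginone and thapsigargin, were each clear of the next.

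As a description over the 36 libraries, which share treatments and genotypes, the Pearson correlation of log2 CPM was 0.94 between Atf6 and Ern1, 0.81 between Xbp1 and Creb3l2, 0.83 between Xbp1 and Creb3, and -0.79 between Atf6 and Mbtps1. Among 10219 genes of sufficient level, the pattern most like that of Atf6 was that of Nfil3 (0.98), followed by 3110043O21Rik (0.98) and Mcu (0.97). For Ern1 they were Gapvd1 (0.99), Brd1 (0.98) and Uhrf1bp1l (0.97), and for Xbp1 Tspyl2 (0.95), Ufl1 (0.94) and Stx18 (0.94). Creb3l2 was most like Edem3 (0.92), Eif2ak3 (0.92) and Tmem39a (0.91), and Creb3l1 most like Sash1, Arnt2 and Glis1 (0.94 each). Eif2ak3, the gene of PERK, and Creb3l2 were both lower in PERK -/- than in WT cells with DMSO, so their correlation includes the genotype difference. For Mbtps1 the most alike genes were Cyb5r3 (0.98), Dag1 (0.97) and Gpr125 (0.97), and for Creb3 Spire2 (0.92), Rab5a (0.92) and Zfp945 (0.91). The nearest genes to Atf6b (Dohh, 0.85) and Mbtps2 (Zcchc9, 0.79) were less alike.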

How the data were processed

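Estimated counts (expected counts) per gene for 36 bulk RNA-seq libraries were deposited by the authors. Per the labels' protocols, RNA was rRNA-depleted, mRNA-selected and made into strand-specific DNBSEQ libraries. The submitters' processing notes name GRCm39 and DESeq, and the aligner and counter are not given in the sources used here. Of the 36930 deposited entries, 27 with date-like names (0.206% to 0.278% of counts) were left out and 39 repeated symbols were summed. The value 0.025, which fills 50.6% of cells, was read as 0, and counts were rounded to whole numbers (2.69% of the others were not whole).

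Counts were fitted in edgeR 4.0.16 (R 4.3.3) with 12 group means, TMM scaling, filterByExpr and robust quasi-likelihood tests, giving 24 contrasts over 16065 genes, 9 of them differences of responses, with Benjamini-Hochberg adjustment and a threshold of 0.05. The fit had 24 residual degrees of freedom, and the scripts were tested on simulated data. Library totals were 32454257 to 37178107 counts, and same-group libraries differed beyond sampling noise (chi-square per degree of freedom at least 9.06). Exon lengths and overlaps came from GENCODE M21, and promoters from RefSeq on GRCm38.p6. Alternatives were DESeq2 1.42.0, library size without TMM, no filter, only the compared groups, a replicate block and leaving out each library. Libraries were paired by the numbers in their titles. Deviations of same-numbered libraries correlated above 0.1 for all pairs in 3 comparisons of WT cells (0.16 to 0.50).

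All 9 genes were tested in each comparison, but the text does not give every value. It gives those of selected genes, and the plot of log2 fold changes shows all 9 in the comparisons of 2 groups. Some of the set readouts, some of the largest rises and falls of the lists, and up to 3 most alike genes per gene are named. Members and lists were chosen with earlier results of these data known. Protein sequences were not used here.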

Additional observations from a re-analysis of the deposited data

Results flagged for a closer look

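The values here are differences between responses that passed edgeR's test of the difference itself, each a log2 value adjusted by Benjamini-Hochberg over all tested genes. For Atf6 the thapsigargin response differed between PERK -/- and WT cells by -2.47 and the halofuginone response by -0.73. The effect of a compound added to thapsigargin differed for Atf6 by 1.53 (BtdCPU) and 1.69 (halofuginone). Its thapsigargin response on top of a compound, less that without it, was -1.57 (BtdCPU) and -2.19 (halofuginone) in WT cells and 0.96 (BtdCPU) in PERK -/- cells.

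For Ern1 the genotypes differed by -1.52 with thapsigargin and -0.89 with halofuginone. Its thapsigargin response in WT cells was smaller on top of BtdCPU (-1.23) and of halofuginone (-1.56).

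Mbtps1 differed between genotypes by 0.67 with thapsigargin and 0.46 with halofuginone, and its thapsigargin response in WT cells differed by 0.58 on top of halofuginone. Creb3l2 differed between genotypes by 0.78 with thapsigargin and by -0.75 for halofuginone added to thapsigargin, and its WT thapsigargin response was larger on top of halofuginone (1.11). Mbtps2 differed between genotypes by 0.56 for BtdCPU added to thapsigargin.

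For Mbtps2 in PERK -/- cells the thapsigargin response was larger on top of BtdCPU by 0.55 (edgeR adjusted p 0.0352). That call was lost without PERK -/- BtdCPU replicate 3 (0.53), PERK -/- DMSO replicate 1 (0.49) or 2 (0.57) or PERK -/- Tg replicate 3 (0.50). The thapsigargin response of Creb3 was smaller on top of halofuginone, by -0.96 in WT and -0.46 in PERK -/- cells. The second of these (edgeR adjusted p 0.0303) was lost when any single library was left out except PERK -/- DMSO replicate 1, with values from -0.38 to -0.48.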

How the results depend on the processing

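No value of the 9 genes in the 24 comparisons changed direction past the threshold under any alternative. Of 216 such values, the call was the same for 211 with DESeq2, 209 on library size alone, 198 without the filter on low counts, 202 on only the compared groups and 180 with the replicate block, and for 1704 of 1782 values with 1 library left out. Library size alone moved the median of all genes by over 0.1 in some comparisons, for example from 0.00 to -0.11 for halofuginone in WT cells.

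The number of the 9 genes called for BtdCPU in WT cells was 3, and 5 without the filter or with the replicate block. For BtdCPU in PERK -/- cells it was 0, and 1 with DESeq2, without the filter, on only the compared groups or with the block. For the genotype difference with BtdCPU it was 0, and 1 with DESeq2, 2 without the filter and 2 with the block (0 to 2 with a library left out). The replicate block moved 0 to 2 and 3 to 5 for BtdCPU or halofuginone added to thapsigargin in WT cells, and the genotype differences from 3 to 5 (halofuginone), 2 to 5 (BtdCPU added) and 2 to 4 (halofuginone added, 1 to 3 with a library left out). The change of the thapsigargin response on top of BtdCPU went from 2 to 1 on only the compared groups and to 6 with the block in WT cells, and from 2 to 1 on library size in PERK -/- cells (1 to 2 with a library left out). On top of halofuginone in PERK -/- cells it went from 1 to 0 on library size or without the filter (0 to 1 with a library left out). BtdCPU added to thapsigargin in PERK -/- cells gave 3 to 5 with a library left out. The cause of these shifts was not tested, and shares of all genes called under the same alternatives are not given beside these counts. With 3 libraries a group and Ern1 at 310 counts in its lowest library, some small changes can have been missed. No limit of detection was set for these genes.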

Other observations

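Of 11 listed subunits of COPII, the coat that carries ATF6 and the CREB3 family out of the ER, 6 rose with thapsigargin in WT cells and 5 in PERK -/- cells, with 0 lower (medians 0.39 and 0.21). Over all genes 24.9% and 15.2% were called higher. Sec23b rose most in WT cells (1.28) and Sec24d most in PERK -/- cells (1.23). Halofuginone alone lowered 6 of the 11 and raised 2 in WT cells, and lowered 5 and raised 0 in PERK -/- cells, where 33.4% and 21.0% of all genes were called lower and 34.7% and 21.2% higher.

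Another list held 6 genes: other substrates of the site-1 and site-2 proteases, an escort, and the ER retention factors Insig1 and Insig2. Halofuginone lowered 5 of the 6 in each genotype, against 33.4% of all genes in WT and 21.0% in PERK -/- cells. Gnptab, the precursor of the enzyme that tags lysosomal proteins, had the largest fall in WT cells (-1.82), and Insig1, which retains SREBP in the ER, in PERK -/- cells (-2.0). Among related genes outside the 9, Creb3l4 rose with thapsigargin in both genotypes (1.83 and 1.56), while with halofuginone it rose in WT (2.26) and fell in PERK -/- cells (-1.32).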
